A study of Homo sapiens with 6 samples.

Results

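The nuclear genes of respiratory complexes I to III are described here across 6 RNA-sequencing libraries of a human lung cancer cell line. The 49 genes were chosen by listed symbol, each tied to its row of the deposited table through its Ensembl identifier, and they make up 49 of the 60960 features. They comprise 6 core and 30 accessory subunits of complex I, the 4 subunits of complex II and 9 subunits of complex III. The cells are NCI-H1975, an established line of non-small cell lung cancer. A control small interfering RNA (siNC, n = 3) was compared with a small interfering RNA directed at GFPT2 (siGFPT2, n = 3), an enzyme of the hexosamine pathway, and the cell line is common to both groups. The labels give no dose or time for either small interfering RNA and leave unsaid whether replicates were grown separately, so p-values reflect no more than the scatter of these 6 samples, part or all of which may be technical. The extraction text names almonertinib, EGF and EGFR knockdown as well, and no treatment label of the 6 samples carries them.

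Complex I takes electrons from NADH, complex II takes them from succinate as part of the citric acid cycle, and both hand them to ubiquinone in the inner mitochondrial membrane. Complex III passes them from ubiquinol to cytochrome c, and complexes I and III pump protons while complex II does not. The core subunits of complex I carry the flavin, the iron-sulfur clusters and the quinone site, and the accessory subunits surround them and are needed for assembly and stability. All subunits of complex II and all but a few subunits of complexes I and III are encoded in the nucleus, where the transcription factors NRF1, GABPA and YY1 are known regulators of respiratory genes.

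The start regions of these genes are shown first because the letters of NRF1, GABPA or YY1 recur in them, though no set of letters is common to all. RefSeq start windows of 300 bases (250 before and 50 after each start, GRCh38.p14) were matched by symbol for 42 of the 49 genes, and both strands were searched. The letters GCGCNTGCG, bound by NRF1, were found in 17 of the 42 genes (40.5%), against 9.01% of all 27305 genes in the table and 18.0% of the 9129 with a mean of at least 1 FPKM here. CCGGAAG, bound by GABPA, was found in 10 genes (23.8%), close to the 23.6% of genes at that level and above the 12.2% of all genes. AAGATGGCG, bound by YY1, was found in 8 genes (19.0%), against 2.14% of all and 4.9% of genes at that level. GGGCGG, bound by SP1, was in 25 genes (59.5%), below the 78.4% of genes at that level and above the 48.3% of all genes. TATAAA was in 4 (9.52%), between the 7.69% of genes at that level and the 14.0% of all. The first letters of AAGATGGCG can overlap the last letters of CCGGAAG. At least 1 of the NRF1, GABPA and YY1 letters was found in 28 of the 42 genes (66.7%), against 20.4% of all and 39.8% of genes at that level. The 42 genes include NDUFV2, NDUFA7 and NDUFA9, whose means were below 1 FPKM. Among members at that level the NRF1 letters were in 16 and absent from 23. The GABPA letters were in 10 and absent from 29, and the YY1 letters were in 6 and absent from 33. A match is a run of letters in this window and says nothing of binding in these cells.

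The pair of stretches below lies before the start and outside every exon of GENCODE 29, and was chosen after the matches were seen because it holds the most of them. Capitals mark matches to the NRF1 or GABPA letters. NDUFB4, an accessory subunit of complex I, holds 3 NRF1 matches at chr3:120596086-120596308 on the plus strand, of which the first 2 lie on opposite strands and overlap. UQCR11, a small subunit of complex III, holds 2 GABPA matches on opposite strands at chr19:1605491-1605712 on the minus strand.
NDUFB4: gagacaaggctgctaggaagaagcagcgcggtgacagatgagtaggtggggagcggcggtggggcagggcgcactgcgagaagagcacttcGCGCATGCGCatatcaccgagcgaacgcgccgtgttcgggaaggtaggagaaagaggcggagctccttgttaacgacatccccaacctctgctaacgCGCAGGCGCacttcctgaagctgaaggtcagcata
UQCR11: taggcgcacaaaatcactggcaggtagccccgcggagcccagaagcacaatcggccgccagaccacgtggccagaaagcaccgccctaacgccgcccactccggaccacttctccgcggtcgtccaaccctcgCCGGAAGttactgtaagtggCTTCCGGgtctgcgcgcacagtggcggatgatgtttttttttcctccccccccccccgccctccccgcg
In SDHA, the flavoprotein of complex II, 4 NRF1 matches stood 49 bases apart from one to the next. The YY1 letters had a fixed place: all 8 matches lay on the strand of the gene, 10 to 25 bases after the start, whereas 52.9% of the 628 matches in all windows lay after the start on that strand. In all 8 the ATG inside the match is an annotated start codon of GENCODE 29, so the same letters also encode the first residues of the protein. Short sites from each complex show this, with the match in capitals and 10 bases on either side: SDHB at chr1:17054004-17054032 and UQCRC1 at chr3:48609605-48609633 on the minus strand, NDUFS4 at chr5:53560650-53560678 and NDUFS7 at chr19:1383914-1383942 on the plus strand.
SDHB: gtcaggagccAAGATGGCGgcggtggtcg
UQCRC1: ctgcagctggAAGATGGCGgcgtccgtgg
NDUFS4: tgcctgcagcAAGATGGCGgcggtgtcaa
NDUFS7: ggccgaggccAAGATGGCGgtgctgtcag

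The libraries held 21899321 to 27234880 counted fragments, recovered from the steps of the deposited values. FPKM means fragments per kilobase of gene length, scaled to the counted fragments of the library, so the order of genes depends on the length used for each. The epithelial markers of the labelled cell type were all 7 present, summing to 1586 to 2267 FPKM in siNC and 1634 to 2054 in siGFPT2. Fibroblast markers summed to 8.74 to 13.1 FPKM, leukocyte markers to 3.44 to 4.67 and endothelial markers to 0.594 to 0.954 over the 6 libraries, with no marker at 0 in all of them. GFPT2, the target, stood at 10.1, 9.30 and 8.28 FPKM in siNC replicates 1, 2 and 3 and at 8.94, 7.58 and 8.72 in siGFPT2 replicates 1, 2 and 3. The groups overlapped, and the log2 fold change was -0.13 (95% interval -0.43 to 0.17, limma adjusted p = 1.00), so every direction below is between libraries labelled siGFPT2 and siNC.

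The mean level over 6 libraries ran from 0.0904 FPKM for NDUFV2 to 309 FPKM for NDUFS5, with a median of 21.9. By part the median was 9.45 FPKM for the core of complex I, 19.7 for its accessory subunits, 25.6 for complex II and 23.2 for complex III. The length behind an FPKM value, recovered from the same steps, often exceeded the mRNA: 16591 bases against a principal mRNA of 711 for NDUFB9, and 8223 against 635 for NDUFA12. SDHC went the other way, with 1902 bases against 13566. Per kilobase of principal mRNA of GENCODE 29, a scale chosen after seeing the data, the medians of the core and accessory subunits were 48.0 and 53.4, that of complex II was 12.4 and that of complex III 52.0. The gap between core and accessory subunits in FPKM was therefore smaller on the mRNA scale, where the core was still the lower of the pair. Complex II moved from the top to the bottom of the 4 parts. The core median rests on 6 genes, among them NDUFV2 at 0.264 on the mRNA scale, and the complex II median rests on 4 genes. For SDHC the mRNA scale divides fragments that go with a length of 1902 bases by a mRNA of 13566 bases. The place of complex II on the mRNA scale is therefore uncertain.

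**Figure D1:**
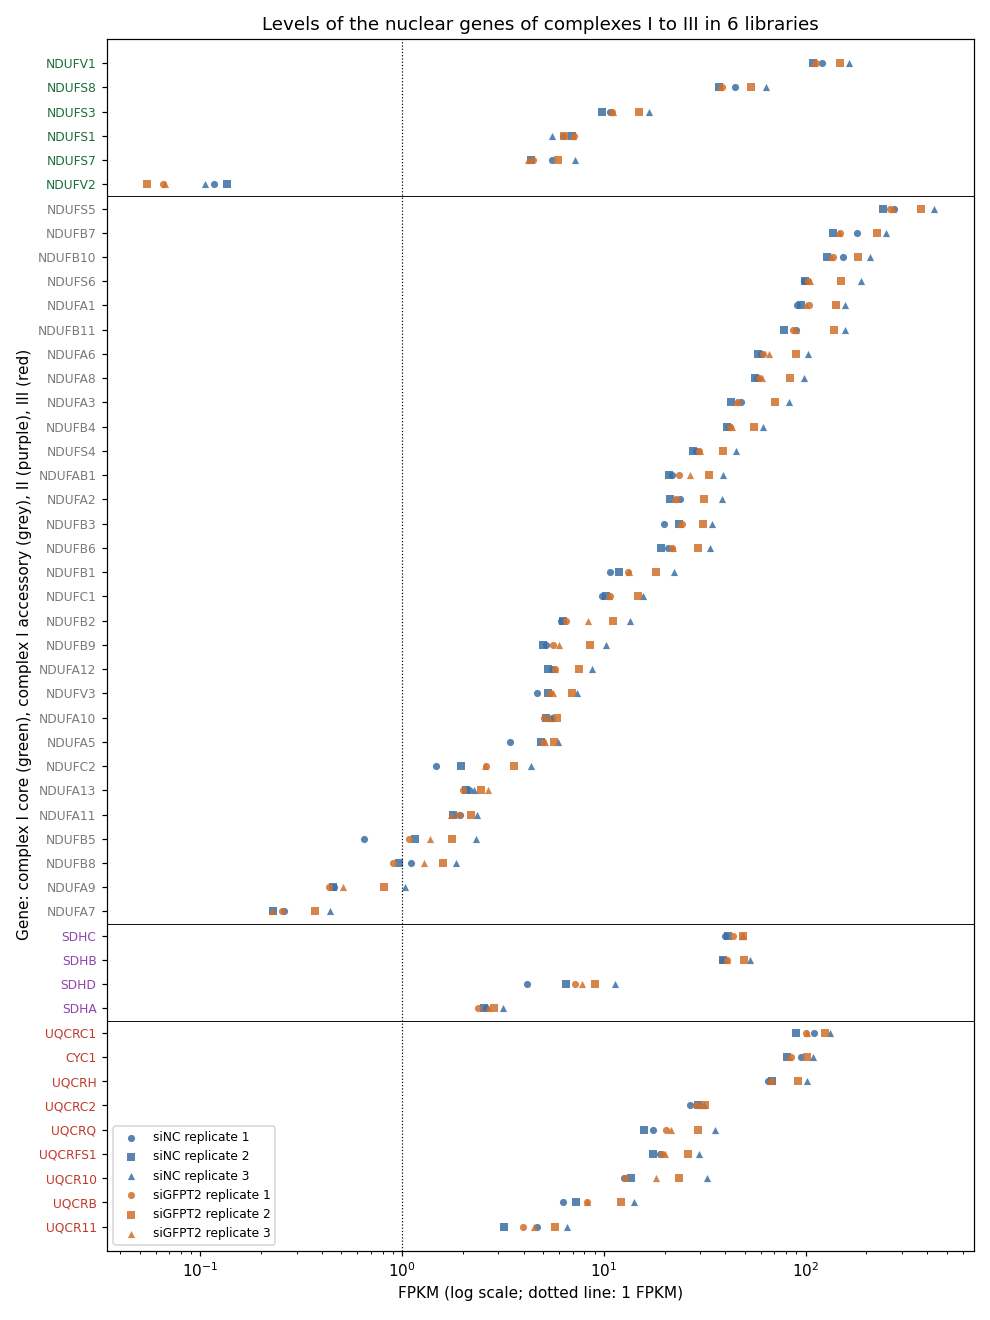
FPKM of the 49 genes in each of the 6 libraries (log axis), by part and mean level, with siNC in blue and siGFPT2 in orange and 1 marker shape per replicate. The genes span 0.0904 to 309 FPKM in their means, and siNC replicate 3 and siGFPT2 replicate 2 are the rightmost points of most genes.

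Of the core subunits, values are given in the order siNC replicates 1, 2 and 3, then siGFPT2 replicates 1, 2 and 3, and the same order holds for all genes below. NDUFV1, which binds NADH and the flavin, stood at 120.2, 108 and 164 FPKM, then 113, 148 and 109. NDUFS8, an iron-sulfur protein near the quinone site, stood at 44.9, 37.3 and 63.9, then 38.5, 53.7 and 37.6. In both genes siNC replicate 3 was highest, siGFPT2 replicate 2 came second, and the groups overlapped. NDUFS3, of the quinone module, stood at 10.8, 9.77 and 16.6 FPKM, then 10.9, 14.8 and 11.1. NDUFS7, which carries the last iron-sulfur cluster before ubiquinone, stood at 5.55, 4.37 and 7.17, then 4.47, 5.95 and 4.19. These genes had the same pair of high libraries. NDUFS1, the largest subunit (chr2:206114817-206159603, minus strand, GENCODE 29 on GRCh38), departed from it with 6.28, 6.95 and 5.56 FPKM, then 7.13, 6.37 and 7.06, so that siNC replicate 3 was its lowest library.

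NDUFV2, an iron-sulfur subunit of the NADH module (chr18:9102630-9134345, plus strand), was by far the lowest core subunit at 0.117, 0.135 and 0.105 FPKM, then 0.0649, 0.0542 and 0.0665. Its siNC values all lay above its siGFPT2 values, but they rest on 7 or 8 fragments per siNC library and 4 per siGFPT2 library. It missed the level filter of the test, and without the filter its limma p was 0.0488 before adjustment and 1.00 after it. At this depth no difference in NDUFV2 was detectable after adjustment.

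Among the accessory subunits of complex I, the highest level was that of NDUFS5, at 274, 242 and 433 FPKM, then 262, 373 and 271. NDUFB7 followed with 179, 137 and 249.9, then 147, 226 and 147. NDUFB10 stood at 153, 128 and 209, then 137, 182 and 133. These 3 belong to the subunits with cysteine pairs that face the intermembrane space, and in each the groups overlapped with siNC replicate 3 on top. NDUFS6, a zinc-binding subunit of the NADH module, stood at 98.2, 98.6 and 188, then 103, 150.3 and 105, with siNC replicate 3 at 1.92 times the lowest library. The lowest level was that of NDUFA7 at 0.260, 0.230 and 0.440 FPKM, then 0.253, 0.369 and 0.227, on 7 to 15 fragments a library. NDUFA9, which sits beside the quinone site, stood at 0.461, 0.453 and 1.03, then 0.436, 0.813 and 0.512. Both fell below the level filter and entered no test, and in both the 2 high libraries were again siNC replicate 3 and siGFPT2 replicate 2. NDUFB8, of the membrane arm, stood at 1.11, 0.959 and 1.84, then 0.903, 1.60 and 1.28. NDUFB5, also of the membrane arm, stood at 0.647, 1.16 and 2.32, then 1.09, 1.76 and 1.38, the widest spread of all 49 genes at 3.59 times from lowest to highest library.

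NDUFA5, of the matrix arm, stood at 3.43, 4.87 and 5.92 FPKM, then 4.98, 5.68 and 5.12, with siNC replicate 1 alone at the bottom. NDUFC2, of the membrane arm, stood at 1.47, 1.96 and 4.33, then 2.60, 3.59 and 2.56, so that the siGFPT2 values fell inside the siNC range. NDUFA10, which resembles a nucleoside kinase, had the narrowest spread at 5.54, 5.14 and 5.56, then 5.07, 5.83 and 5.34, a ratio of 1.15 between highest and lowest.

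The other 19 accessory subunits had means between 1.99 FPKM (NDUFA11) and 114 FPKM (NDUFA1). Of the abundant ones, NDUFA1, a small membrane subunit needed for assembly, stood at 114 ± 37.3 FPKM in siNC and 115 ± 22.6 in siGFPT2 (mean ± SD, n = 3 each, as in the rest of this paragraph). NDUFB11, of the membrane arm, stood at 108 ± 42.3 and 105 ± 29.1. In both genes the difference between group means was smaller than either SD. NDUFS4, of the matrix arm and a known site of inherited complex I deficiency, stood at 33.7 ± 9.73 and 32.8 ± 5.38. NDUFAB1, the mitochondrial acyl carrier protein, stood at 27.3 ± 10.2 and 27.8 ± 4.97. NDUFB9 stood at 6.81 ± 3.00 and 6.69 ± 1.59, and here too the groups differed by less than their spread. NDUFA12, of the matrix arm, stood at 6.50 ± 1.95 and 6.32 ± 1.04. NDUFA13, also known as GRIM-19, stood at 2.16 ± 0.0954 and 2.38 ± 0.348, and NDUFA11 at 2.02 ± 0.291 and 1.95 ± 0.224. NDUFA13 was the only one of these 8 whose highest library was neither of the pair above, since siGFPT2 replicate 3 led at 2.68 FPKM. The remaining 11 had means from 5.87 FPKM (NDUFV3) to 72.9 FPKM (NDUFA6) and log2 fold changes from -0.09 (NDUFA2) to 0.07 (NDUFB2).

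In complex II, SDHC and SDHD anchor the enzyme in the membrane, SDHB carries the iron-sulfur clusters and SDHA the flavin. SDHC stood at 39.7, 41.3 and 48.7 FPKM, then 43.5, 48.9 and 48.4. SDHB stood at 38.6, 38.7 and 52.7, then 40.7, 49.3 and 41.0. SDHD was lower and more spread at 4.16, 6.48 and 11.3, then 7.21, 9.04 and 7.80. SDHA was lowest at 2.62, 2.56 and 3.14, then 2.37, 2.87 and 2.68. The groups overlapped in all 4, and SDHC was the one in which siGFPT2 replicate 2 exceeded siNC replicate 3. On the mRNA scale the order changed to SDHB at 87.7, SDHD at 14.9, SDHA at 9.92 and SDHC at 6.32 FPKM on that scale. The place of SDHC there is uncertain, since its FPKM went with 1902 bases and its principal mRNA has 13566. The place of SDHA is uncertain on both scales. Its pseudogenes SDHAP1 and SDHAP3 had means of 5.05 and 2.05 FPKM, beside 2.70 for SDHA. The part of these copies in the level of SDHA was not tested.

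In complex III, UQCRC1, a core protein related to processing peptidases, stood at 110.1, 89.9 and 132 FPKM, then 100.1, 124 and 101. CYC1, the heme-bearing cytochrome that passes electrons to cytochrome c, stood at 94.8, 80.6 and 109, then 84.7, 101 and 82.2. In both genes siNC replicate 2 was lowest and siNC replicate 3 highest. UQCRH, the hinge protein, stood at 65.1, 68.3 and 101, then 67.0, 91.5 and 67.6. UQCRC2, the other core protein, stood at 26.6, 29.3 and 31.3, then 28.7, 31.7 and 30.2. It was one of the flattest members, with a ratio of 1.19 between highest and lowest library. UQCRFS1, the Rieske iron-sulfur protein, stood at 18.9, 17.4 and 29.6, then 19.4, 26.1 and 20.0. The ratio of highest to lowest library was 1.69 for UQCRFS1, 1.55 for UQCRH and 1.35 for CYC1, and it was above 2 for the genes that follow. UQCRQ stood at 17.4, 15.9 and 35.3, then 20.2, 29.1 and 21.4. UQCR10 stood at 12.5, 13.7 and 32.5, then 12.7, 23.6 and 18.1, and UQCRB at 6.28, 7.24 and 14.1, then 8.28, 12.2 and 8.29. Their highest library was 2.60 (UQCR10), 2.24 (UQCRB) and 2.23 (UQCRQ) times the lowest. UQCR11 stood at 4.68, 3.21 and 6.57, then 3.98, 5.70 and 4.51, with overlapping groups as in the others.

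No gene of complexes I to III changed between siGFPT2 and siNC by the test used. Of the 49 genes, 46 had a mean of at least 1 FPKM and were tested with limma on log2(FPKM + 0.1), and 0 passed an adjusted p of 0.05, as did 0% of the 12896 features tested. The count at an unadjusted p under 0.05 was 0 of 46, against 84 features or 0.651% of all, and 0 of 46 had groups that did not overlap, against 3.53% of all features. The log2 fold change was above 0 in 24 genes and below 0 in 22, with a median of 0.009, beside 0.033 for all features tested. Of all features, 61.4% lay above 0. FPKM is scaled to the counted fragments of each library, so these values are relative and do not give the amount of RNA per cell.

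By part, the median log2 fold change was -0.08 for the 5 tested core subunits of complex I (2 above and 3 below 0) and 0.002 for 28 accessory subunits (14 and 14). For complex II it was 0.07 (3 of 4 above 0) and for complex III 0.017 (5 of 9 above 0). Each of these medians changed sign when single libraries were left out, running from -0.22 to 0.061 for the core, -0.14 to 0.25 for accessory subunits, -0.078 to 0.19 for complex II and -0.13 to 0.25 for complex III. The estimates ran from -0.21 for NDUFS7 (95% interval -0.73 to 0.31) to 0.29 for NDUFC2 (-0.61 to 1.20). NDUFS1 had the smallest p, 0.326 unadjusted by limma, at a log2 fold change of 0.13 (-0.17 to 0.43). SDHC at 0.12 (-0.16 to 0.41), NDUFA5 at 0.18 (-0.31 to 0.67) and SDHD at 0.24 (-0.56 to 1.04) were the next in size or p among those above 0. NDUFS8 stood at -0.15 (-0.71 to 0.40), and CYC1 at -0.08 (-0.44 to 0.28). For 43 of 46 genes a change of 2-fold either way lay outside the interval, as it did for 11962 of 12896 features. The exceptions were NDUFC2, NDUFB5 and SDHD, whose upper bounds lay above 1 on the log2 scale. The median standard error of the genes was 0.232, larger than the 0.176 of all features.

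**Figure D2:**
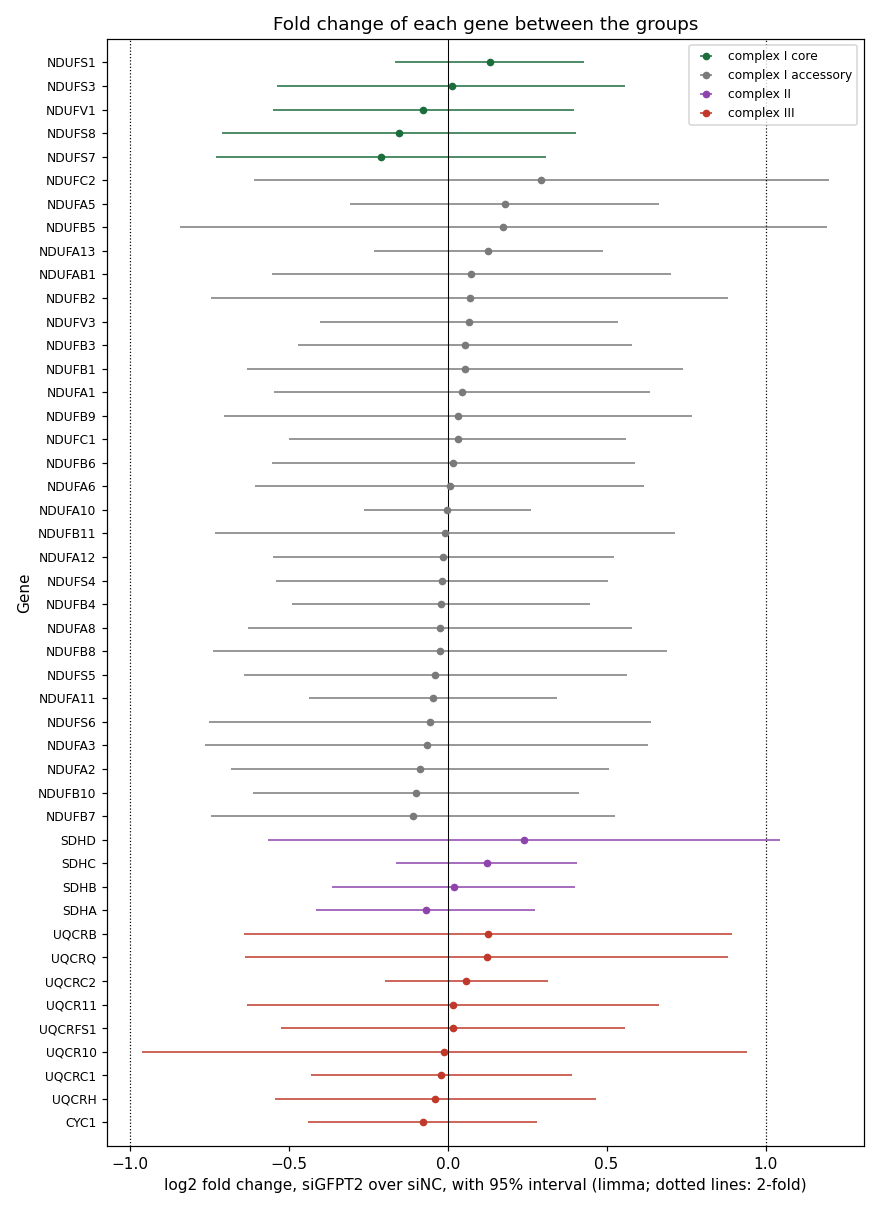
Log2 fold change of the 46 tested genes, siGFPT2 over siNC, with 95% intervals from limma, coloured by part; dotted lines mark a 2-fold change. All intervals cross 0, and those of NDUFC2, NDUFB5 and SDHD extend past the 2-fold line.

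The spread of these genes came mainly from a pair of libraries, 1 in each group. In 41 of the 46 tested genes (89.1%) siNC replicate 3 was the highest library and siGFPT2 replicate 2 the second, an order found in 3152 of all 12896 features (24.4%). The 5 genes outside it were NDUFS1, NDUFA10, NDUFA13, UQCRC2 and SDHC. The count was 4 of 5 in the core, 26 of 28 in the accessory subunits, 3 of 4 in complex II and 8 of 9 in complex III. As deviation from the mean over the 6 libraries, on the log2(FPKM + 0.1) scale, the median of the 46 genes was -0.19, -0.27 and 0.48 in siNC replicates 1, 2 and 3. It was -0.15, 0.29 and -0.12 in siGFPT2 replicates 1, 2 and 3, whereas the median of all features stayed between -0.04 and 0.05 in every library. In siNC replicate 3 the 46 genes lay above their own mean in 97.8% of cases, against 45.6% of all features. NDUFS1 was the exception, at -0.23 in that library and -0.04 in siGFPT2 replicate 2. NDUFA13, NDUFA10, UQCRC2 and SDHC also deviated little in siNC replicate 3, by 0.002, 0.04, 0.08 and 0.12, and UQCR10 deviated most, by 0.88.

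**Figure D3:**
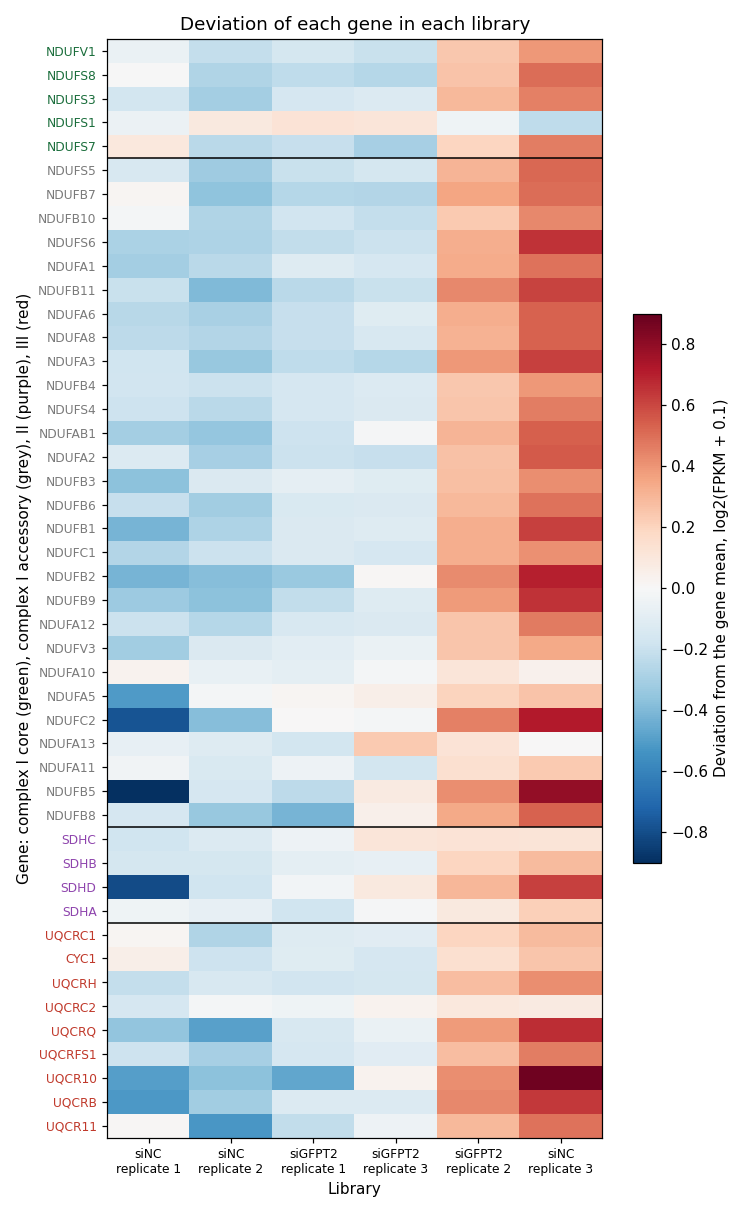
Deviation of each tested gene from its mean over 6 libraries, log2(FPKM + 0.1), with libraries in columns and genes in rows by part. The last columns, siGFPT2 replicate 2 and siNC replicate 3, are above the gene mean in 45 of 46 genes each, with NDUFS1 as the exception.

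The genes together took 0.365%, 0.342% and 0.538% of counted fragments in siNC and 0.362%, 0.481% and 0.367% in siGFPT2, so their summed share was also highest in that pair. All 4 parts had a positive median in that pair: in siNC replicate 3 and siGFPT2 replicate 2 the median deviation was 0.46 and 0.24 for the core, 0.51 and 0.31 for accessory subunits, 0.25 and 0.16 for complex II and 0.46 and 0.28 for complex III. The differences between parts were not tested. Over the 46 genes the library medians spanned 0.744 with all 6 libraries and 0.133 when the pair was left out.

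Length of the mRNA moved with this pattern. Genes with a principal mRNA of 528 to 839 bases (16 genes) had a median deviation of 0.50 in siNC replicate 3, those of 844 to 1324 bases (14 genes) 0.51, and those of 1366 to 13566 bases (16 genes) 0.36. All features with mRNA lengths up to the same bound of 839 bases had 0.25 (n = 1346), those between the bounds 0.33 (n = 1159), and those of 1366 bases or more -0.10 (n = 10062). The members lay above all features in each class, but lengths were not matched within a class. In the longest class the median mRNA was 2523 bases for the members and 3317 for all features. The part of length in the library pattern was not tested.

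Other gene lists showed which genes shared it. In siNC replicate 3 the median deviation was 0.54 for 13 nuclear subunits of complex IV, 0.53 for 18 of ATP synthase and 0.54 for 77 cytosolic ribosomal proteins, which are not mitochondrial. Assembly factors deviated by 0.30 (complex I, 18 genes), 0.60 (complex II, 4 genes) and 0.27 (complex III, 8 genes). The 8 mitochondrially encoded subunits of complexes I and III had a median of 0.003 but were split. Of these, 4 lay above their own mean, and single genes ran from -1.13 to 0.43. The 14 citric acid cycle enzymes had a median of 0.04, with 7 above their own mean and a range of -0.34 to 0.34. The 11 regulators of respiratory gene transcription, among them NRF1, GABPA and YY1, had a median deviation of -0.16, with 3 of the 11 above their own mean. Genes with the NRF1 letters in their start window deviated by 0.46 and those without by 0.46 as well.

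**Figure D4:**
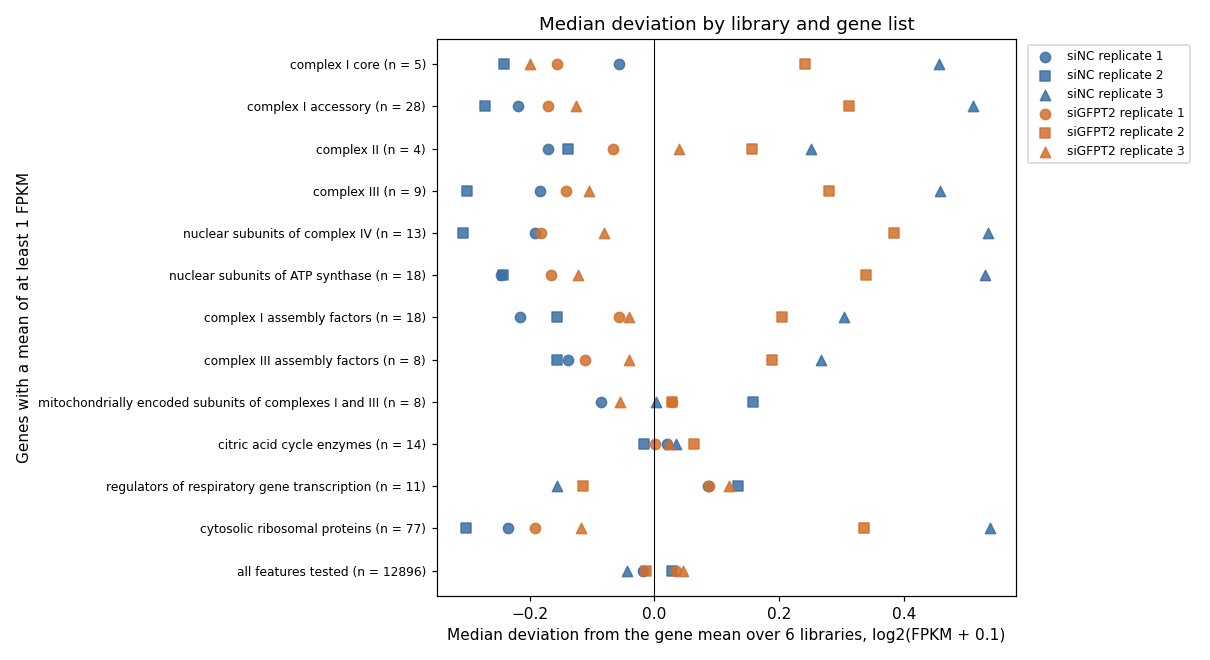
Median deviation from the gene mean by library (marker and colour) for the 4 parts and for other gene lists, log2(FPKM + 0.1). In siNC replicate 3 the core, accessory and complex III genes lie between 0.46 and 0.51, near the 0.54 of complex IV and ribosomal protein genes. Mitochondrially encoded subunits have a median of 0.003 there, with single genes from -1.13 to 0.43.

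Leaving out the pair of libraries changed the balance of directions but called no gene. With siNC replicate 3 and siGFPT2 replicate 2 both left out, 37 of 46 genes lay above 0, beside 57.0% of all features. The median log2 fold change was 0.09, beside 0.03 for all features, and the median standard error of the genes fell to 0.093. Unadjusted p was under 0.05 in 6 of 46 genes, against 751 features or 5.82% of all. These were UQCRQ, UQCRB, SDHD, NDUFC2, NDUFB1 and NDUFAB1, all higher in siGFPT2, and the smallest adjusted p by limma was 0.720. With siNC replicate 3 alone left out, 45 of 46 genes lay above 0 with a median of 0.24, beside 52.8% and 0.014 for all features. With siGFPT2 replicate 2 alone left out, 8 of 46 did, with a median of -0.13, beside 60.7% and 0.058 for all features. The direction of the median thus turned with the library left out, and in no case was a gene called.

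The rest of the respiratory pathway was read from the same fit, and 0 genes of any list passed the adjusted threshold or an unadjusted p of 0.05. In that fit 61.4% of all features lay above 0. Among 18 complex I assembly factors 14 lay above 0 (median 0.09), with NUBPL, which delivers iron-sulfur clusters, at 0.17 (-0.17 to 0.50) and TMEM126B at 0.18 (-0.26 to 0.63) holding the smallest p. Of 4 complex II assembly factors 3 lay above 0 (median 0.05), with SDHAF3 at 0.11 and SDHAF4 at -0.12. Of 8 complex III assembly factors 4 lay above 0 (median 0.007), with TTC19 at 0.14 and UQCC6 at 0.09. In 2 of these 8, TTC19 and UQCC1, all siGFPT2 values lay above all siNC values, beside 3.53% of all features with groups that do not overlap. UQCC1 was named after its values were seen. The smallest unadjusted p of this list by limma were 0.199 (TTC19) and 0.565 (UQCC6), and UQCC1 was not among them. Electron carriers and other quinone-reducing enzymes had 13 of 18 above 0 (median 0.07), led by PDSS2 of ubiquinone synthesis at 0.29 (-0.11 to 0.68) and CYCS, cytochrome c, at 0.19.

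Complex IV had 7 of 13 genes above 0 (median 0.004), with COX6A1 at 0.15 and COX7A2 at 0.15. ATP synthase had 9 of 18 (median 0.015), with ATP5F1A and ATP5PB both at 0.09. The mitochondrially encoded subunits had 3 of 8 (median -0.01), with MT-ND6 at -0.12 and MT-ND3 at 0.10. Citric acid cycle enzymes had 8 of 14 (median 0.03), with DLD at 0.19 and SUCLG2 at 0.16, and DLD was the 1 of 14 whose groups did not overlap, as they did not in 3.53% of all features. The regulators had 8 of 11 (median 0.008), with TFB2M, a mitochondrial transcription factor, at 0.33 (-0.003 to 0.66) and an unadjusted p of 0.0513 by limma, and TFAM at 0.17. TFB2M was the 1 of 11 regulators whose groups did not overlap, beside the same 3.53%. Ribosomal proteins had 47 of 77 (median 0.02), with RPL17 at 0.13 and RPS25 at 0.18.

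Very low levels of some subunits went with exons that another gene shares on the same strand. In GENCODE 29, 10 of the 49 genes share at least 10% of their principal mRNA bases with another gene on that strand, and 9 of these 10 were among the 11 genes with the fewest fragments. This comparison and its cuts of 10% and 11 genes were not planned, and the second cut ends at SDHD, the last of these 9 genes. The median of the 10 genes was 916.5 fragments over the 6 libraries, against 9682.5 for the 38 genes that share none. Their median level was 2.13 FPKM against 27.1. NDUFV2 shared 82.9% of its mRNA and had 34 fragments in all, NDUFA7 shared 75.9% and had 59, and NDUFB8 shared 71.7% and had 366. NDUFA11 (67.0%), NDUFA13 (44.1%), SDHD (22.2%), UQCR11 (17.7%), NDUFC2 (17.1%) and NDUFA9 (11.8%) had 867 to 3053. NDUFV1 was the exception, sharing 16.7% and holding 91478 fragments, the most of any member. NDUFB5 and UQCR10 shared nothing and still had 1174 and 2639.

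**Figure D5:**
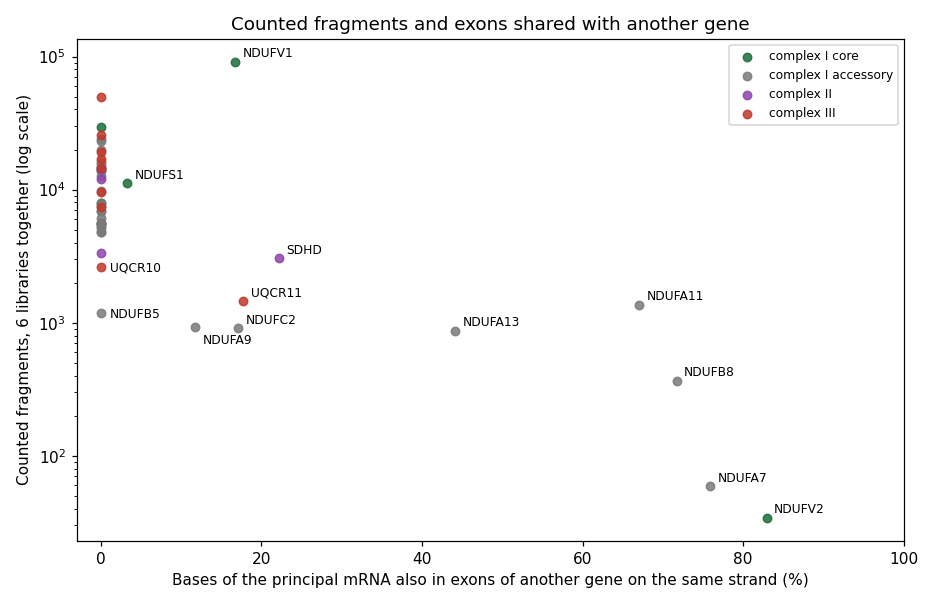
Counted fragments over the 6 libraries (log axis) against the percentage of principal mRNA bases shared with another gene on the same strand, 1 point per gene, coloured by part. The 3 genes that share over 70%, NDUFV2, NDUFA7 and NDUFB8, hold 34 to 366 fragments, and NDUFV1 at 16.7% holds 91478.

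For the 10 genes that share at least 10%, most of the partner genes on the same strand were nearly empty. AP005263.1, which shares exons with NDUFV2, had 0 fragments in every library, AC010323.1 of NDUFA7 had 0 to 2 and AL133352.1 of NDUFB8 had 0 or 1. NDUFC2-KCTD14, a readthrough of NDUFC2, had 0. NDUFA13 was the exception among these 10, since its partner AC011448.1 had 27 to 55 fragments a library. Its partner YJEFN3 had 212 to 293, with 1470 in all against 867 for NDUFA13 itself. Of 8 genes sharing at least 10% on the opposite strand alone, the median was 7123.5 fragments, and the labels do not say whether strand was kept. NDUFV2P1, a pseudogene of NDUFV2, had 24 to 51 fragments a library, more than the 4 to 8 of NDUFV2 itself. In all, 75 pseudogenes named after 24 of the members were in the table, 41 of them without a fragment and 6 with over 100. SDHAP1 had the most of them, 2360 over the 6 libraries, and SDHAP3 had 883, against 3349 for SDHA. How reads in shared exons were counted is not given in the sources used here, and the part of exon sharing in these low levels was not tested. The levels of the 10 genes above are therefore uncertain.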

How the data were processed

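Bulk RNA sequencing of 6 NCI-H1975 samples gave 1 table of FPKM values, as deposited by the authors. HISAT2, featureCounts and DESeq2 are named in the submitters' processing notes without versions, and neither build nor annotation is given in the sources used here. Per the labels' protocols, mRNA was captured with oligo(dT) beads for paired-end libraries. Columns were matched to samples by name, and 0 columns of sample values went unused. Symbols were found for 60463 of 60960 features.

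Whole fragments and the depth of each library were recovered from the steps of the FPKM values, within a tolerance of 1e-04 reads. The exon length of GENCODE 29 gave whole reads for 19937 features. For 17043 others the smallest length that did was taken, which can be too short by a whole factor, so that fragment counts of those features are lower limits. The recovered reads summed to 99.77% to 99.81% of the depth, and intervals over libraries do not add counting error.

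The groups were compared with limma 3.58.1 in R 4.3.3 (lmFit, eBayes with trend, two-sided) on log2(FPKM + 0.1) after leaving out features whose mean was below 1 FPKM, with Benjamini-Hochberg adjustment over all 12896 features and a threshold of 0.05. Fold changes are on that scale and understate the change of low genes. The model was tested on simulated counts, drawn independently for each gene and library. They held no shift shared by many genes of a library, so they do not cover the pattern of the high pair. Alternatives were other pseudocounts, filters and scalings, a replicate block, limma-voom on recovered fragments with trimmed-mean-of-M scaling, a length correction, and libraries left out. The length correction removed a linear trend on the length behind each FPKM value, not on mRNA length. mRNA lengths and shared exons come from the principal transcripts of GENCODE 29.

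The members and lists were chosen with earlier results of these data known. Values in every library were given for GFPT2, all core subunits of complex I among the members, all members of complexes II and III, the 4 highest and 4 lowest accessory subunits, the 3 rising and 3 falling members of smallest p, and the 3 members of largest and 3 of smallest spread. Of each list the 2 genes of smallest p were named. Other members were named after their values were seen.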

Additional observations from a re-analysis of the deposited data

How the results depend on the processing

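No gene of complexes I to III and no other feature was called by limma under any setting, and the count at an unadjusted p under 0.05 over all features ran from 50 to 754 against 84. The replicate block gave 0 calls, 63 features at that p, and the same median of 0.009 over the 46 genes. Whether replicate numbers pair the samples was not settled. With each group centred on its own mean, deviations of same-numbered libraries correlated at 0.47, -0.72 and -0.57, and siNC replicate 3 with siGFPT2 replicate 2 at 0.79. These correlations cannot decide it, because the deviations within a group sum to 0 and the high pair weighs on all of them. The median log2 fold change of the genes was -0.04 with median centring, which moved the median of all features to -0.02, 0.003 with quantile normalization, -0.015 with limma-voom and 0.008 with the length trend removed. That trend was on the length behind FPKM, so the pattern with mRNA length was not corrected by it. The median of the genes ran from -0.13 to 0.24 with each library left out. Of the 46 signs, 9 turned with median centring, 5 with quantile normalization, 6 with limma-voom, 1 with the length trend removed and 13 with both high libraries left out, and 42 turned with some single library left out. Among the genes given in every library, signs turned with median centring for NDUFS3 (-0.041), SDHB (-0.034), UQCRFS1 (-0.036) and UQCR11 (-0.036), with quantile normalization for NDUFS3 (-0.004) and UQCR11 (-0.026), with limma-voom for NDUFS3 (-0.012), SDHB (-0.005), UQCRFS1 (-0.007) and UQCR11 (-0.006), and with the length trend removed for NDUFA10 (0.000). Among the same genes, with both high libraries left out they turned for UQCRC1 (0.015), UQCRH (0.012), UQCR10 (0.21), NDUFS6 (0.078), NDUFS5 (0.050) and NDUFB8 (0.059). With each library left out in turn their ranges that cross 0 were, in complex I, NDUFS3 -0.14 to 0.24, NDUFS8 -0.33 to 0.061, NDUFV1 -0.22 to 0.099, NDUFS5 -0.21 to 0.21, NDUFS6 -0.23 to 0.26, NDUFB5 -0.23 to 0.62, NDUFB7 -0.32 to 0.12, NDUFB8 -0.20 to 0.23, NDUFB10 -0.26 to 0.092, NDUFA5 -0.031 to 0.35, NDUFA10 -0.055 to 0.043 and NDUFC2 -0.019 to 0.73. In complex II they were SDHA -0.13 to 0.022, SDHB -0.071 to 0.17 and SDHD -0.10 to 0.61. In complex III they were UQCRB -0.099 to 0.48, UQCRC1 -0.16 to 0.12, UQCRC2 -0.002 to 0.11, UQCRFS1 -0.13 to 0.25, UQCRH -0.19 to 0.16, UQCRQ -0.092 to 0.48, UQCR10 -0.26 to 0.42, UQCR11 -0.24 to 0.27 and CYC1 -0.19 to 0.026. The median level of the members was 48.9 per kilobase of principal mRNA, a scale added after seeing the data, against 21.9 FPKM. The cause of these shifts was not tested. Depth limits NDUFV2, NDUFA7 and NDUFB8, which rest on 34 to 366 fragments in all.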
